A study of Mus musculus with 16 samples.

Results

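The 2 single drugs of the study were set head to head: 5 tumours from mice given cabozantinib alone against 3 tumours from mice given an antibody to PD-1 alone. These are 8 of the 16 tumours measured, and they were taken by their treatment labels and not by any measured value. All 16 grew in the flank of male C57BL/6 mice, aged 5 weeks at injection, from injected cells of the mouse hepatocellular carcinoma line Hepa1-6 in 50% Matrigel. Treatment began at a tumour volume of 200 to 300 cubic mm, and tumours were removed on day 14. The Cabozantinib group received the drug by mouth each day at 30 mg/kg. The Anti-PD1 group received the hamster antibody J43 at 10 mg/kg in 5 injections 3 days apart. The Placebo group (4 tumours) was injected with hamster IgG at that dose and spacing, and the Combination group (4 tumours) had both drugs. The sources used here do not say if IgG was injected along with cabozantinib. The model is 1 transplanted line at a site outside the liver. The labels do not say that each tumour came from a separate mouse, so p-values here measure the spread between these tumours. The sample titles of Cabozantinib 2 and 3 share a leading number, which is not explained. So do those of Placebo 2 and Anti-PD1 1, of Placebo 4 and Anti-PD1 3, and of Cabozantinib 5 and Combination 3. These numbers were not used as pairs or batches.

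Cabozantinib blocks several receptor tyrosine kinases, among them the vascular endothelial growth factor (VEGF) receptors that endothelial cells need to sprout, MET, AXL, KIT and TIE2. Vessel loss lowers oxygen supply, and cells that sense low oxygen stabilise hypoxia-inducible factors, which switch on glucose transport, glycolysis and Vegfa itself. Antibodies to PD-1 act on another cell type: they block an inhibitory receptor of activated T cells.

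The arrays gave log2 signals, so a difference of 1 is a 2-fold difference. Each of 17097 genes was read from 1 probe set (a group of probes for 1 transcript), the one brightest on average across the 16 arrays. Array medians ran from 4.92 to 5.13. A group mean under 4.92 may be background only, and a fold against such a group can understate the difference. The liver tumour markers were high in all 8 tumours: Alb, which encodes albumin, lay between 13.06 and 13.17, and Afp, the fetal liver protein alpha-fetoprotein, between 12.58 and 12.78. Of 5 array measures, none differed past the threshold. A measure that alone separated the groups fully could not have passed after adjustment, so equal quality was not shown. The closest, the hybridisation controls, averaged 10.49 ± 0.29 (SD) over the 5 Cabozantinib arrays and 9.98 ± 0.27 (SD) over the 3 Anti-PD1 arrays, with a two-sided exact permutation p of 0.0714 (0.357 adjusted over the 5 measures, where 0.0357 is the smallest exact p possible).

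In bulk tumours, fewer cells of a type and less RNA per cell cannot be told apart. The tumours also differed in tissue makeup, which was followed with a score per gene list. The score averages, over the list's genes, how far a tumour's log2 signal lies from the gene's average in all 16 tumours. The score of 22 skeletal muscle genes was 3.84 in Anti-PD1 2, 3.72 in Cabozantinib 4 and 1.57 in Cabozantinib 3, against at most -0.78 in the other 5. The score of 3 Y-linked genes was 0.43, 0.77 and 0.54 in Anti-PD1 and -0.91, -1.02, 0.15, -0.01 and -0.54 in Cabozantinib, so the groups did not overlap. One of the 3, Kdm5d, was past the threshold: it fell by 1.0 ± 0.21 (SE), with an adjusted p of 0.0187 (14 of 20 alternative fits, described below). The fit with the Y-linked score as a covariate says nothing about Kdm5d, because the score contains this gene. The dimmer Kdm5d probe sets gave -0.14 (adjusted p = 0.523) and 0.19 (adjusted p = 0.322). Cabozantinib 1 and 2, with the lowest Y-linked scores, also had the lowest macrophage scores (-0.96 and -1.88) and fibroblast scores (-0.90 and -1.39) of the 8. The part of this difference in makeup in the results was not tested, and values with the Y-linked score as a covariate are given with the main gene groups below.

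Between Cabozantinib and Anti-PD1, 928 of 17097 genes had a Benjamini-Hochberg adjusted p under 0.05 (limma, 4 group means fitted over all 16 arrays). Of these, 457 were higher in Cabozantinib (2.67% of genes tested) and 471 lower (2.75%). The unadjusted p was under 0.05 for 3803 genes, where 854.85 would be expected with no difference. Rises and falls in this text are of Cabozantinib relative to Anti-PD1, and are not changes from Placebo. Falls were larger than rises: the median called difference was 0.51 among the higher genes and -0.97 among the lower ones. At 2-fold or more, 27 genes were higher and 226 lower. Groups did not overlap for 859 of the 928. Over all genes, the groups did not overlap with Cabozantinib higher for 7.64% and with Cabozantinib lower for 5.88%. With each array centred on its own median, the median difference of all genes moved from 0.03 to 0.16 and the calls to 662 higher (62.7%) and 393 lower.

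The number of calls rested on single tumours and on the covariate. It ran from 164 without Anti-PD1 2 to 1916 without Cabozantinib 3, and it was 42 with the Y-linked score as a covariate, of which 27 were among the 928. In 20 alternative fits, 8 of which left out 1 tumour, 23 genes were called every time, 3 of them higher and 20 lower. With the Y-linked fit set aside, 77 genes were called in all the others. The Y-linked scores of the groups did not overlap, so that fit cannot fully separate the score from the drug. For genes past the threshold, the number of these 20 fits in which the gene passed is given below.

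**Figure D1:**
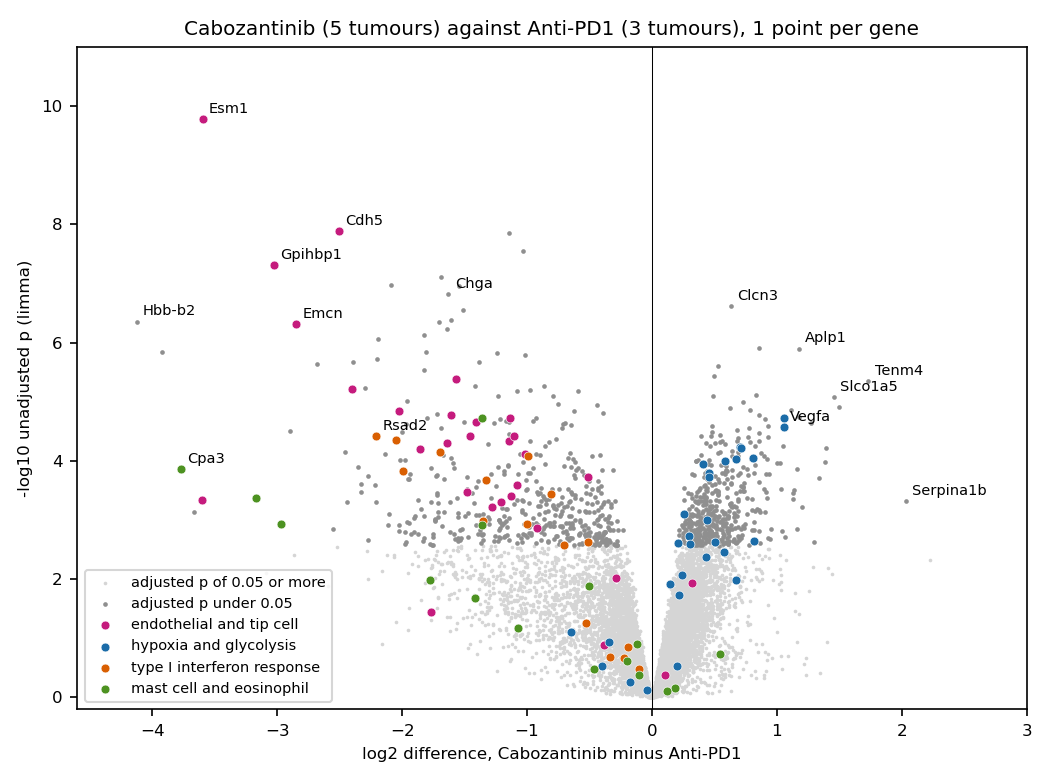
Log2 difference of Cabozantinib minus Anti-PD1 (x axis) against -log10 of the unadjusted limma p (y axis) for 17097 genes, 1 point each, with 4 gene lists in colour and the genes past the adjusted threshold in dark grey. Endothelial genes such as Esm1 (-3.60) and Gpihbp1 (-3.02) stand at the upper left, and the hypoxia genes that passed, such as Vegfa (1.05), lie to the right of 0.

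Among the 31 lists, endothelial genes had the largest share lower in Cabozantinib. The lists were chosen with earlier results of these data known, so the shares given here and below are descriptions only. Of 29 measured endothelial and tip cell genes, 24 (82.8%) were past the threshold, all lower, where 2.75% of all genes were. The list's median difference was -1.41, against 0.03 over all genes. With the Y-linked covariate the median was -0.89 and 4 genes passed, and without Anti-PD1 2, whose endothelial score was the highest at 1.45, 13 did. The list score was 0.81, 1.45 and 0.66 in Anti-PD1 and between -0.69 and -0.16 in Cabozantinib.

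Esm1 encodes endocan, a proteoglycan secreted by tip cells at the front of growing vessels. Its log2 signal was 7.82, 8.31 and 8.64 in the Anti-PD1 tumours and 4.54, 4.89, 4.47, 4.78 and 4.62 in the Cabozantinib tumours. The difference was -3.60 ± 0.23 (SE), with an adjusted p of 2.8e-06. The Cabozantinib values sat at background, with a spread of 0.17 (SD). Esm1 was past the threshold in 20 of 20 alternative fits, and the difference was -3.99 with the Y-linked covariate.

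Gpihbp1, the capillary protein that anchors lipoprotein lipase to the vessel wall, measured 7.84, 8.22 and 7.88 under Anti-PD1 and 4.84, 5.88, 4.35, 4.65 and 5.06 under Cabozantinib. It fell by 3.02 ± 0.29 on the log2 scale (adjusted p = 0.000166, 20 of 20 fits). Cdh5, which encodes the junction protein VE-cadherin, gave 7.39, 7.81 and 7.28 against 4.64, 5.05, 4.96, 5.62 and 4.67. The lowest Anti-PD1 value lay above the highest Cabozantinib value for both genes. The difference in Cdh5 was -2.51 ± 0.22 (adjusted p = 7.92e-05, 20 of 20 fits).

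Emcn, an endothelial surface mucin, fell by 2.85 ± 0.33 on the log2 scale (adjusted p = 0.000552, 20 of 20 fits). Its highest Cabozantinib value, 6.28 in Cabozantinib 4, was below the lowest Anti-PD1 value of 7.92. Aplnr, the apelin receptor of sprouting vessels, was more uneven. It measured 8.44, 9.74 and 6.66 under Anti-PD1, and 4.04 to 4.29 in 4 Cabozantinib tumours but 6.54 in Cabozantinib 4. The difference was -3.60 ± 0.80 (adjusted p = 0.0227, 14 of 20 fits), and its dimmer probe set gave -0.59 (adjusted p = 0.149). Cd93, a receptor of endothelial and myeloid cells outside the list, fell by 2.68 ± 0.36 (adjusted p = 0.00142, 19 of 20 fits).

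**Figure D2:**
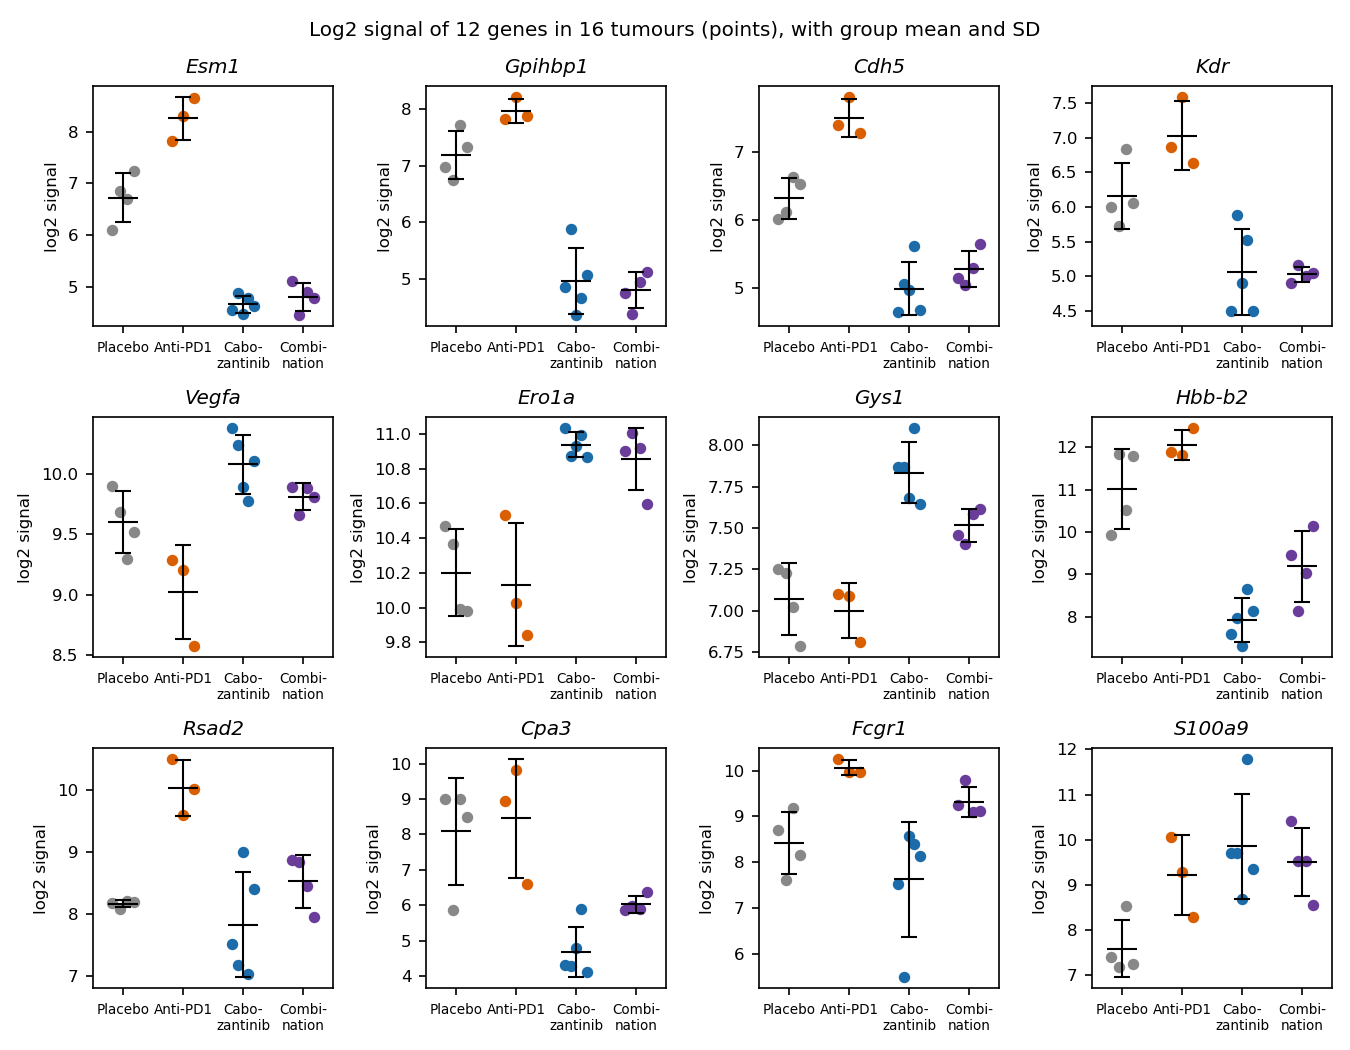
Log2 signal (y axis of each panel, own range) of 12 genes in the 16 tumours by group, 1 point per tumour, with the group mean and SD in black. The 5 Cabozantinib values of Esm1 lie between 4.47 and 4.89, below the 3 Anti-PD1 values of 7.82 to 8.64, while the S100a9 values of the groups overlap.

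Among 10 measured VEGF ligands and receptors, the ligand Vegfa was higher (10%, against 2.67% of all genes), and the receptor Kdr and the co-receptor Nrp1 were lower (20%, against 2.75%). The other 7 did not pass, and 0 members passed with the Y-linked covariate or with the 8 tumours alone. Vegfa was 9.29, 9.21 and 8.57 in Anti-PD1 and 10.38, 10.23, 9.89, 9.78 and 10.105 in Cabozantinib, so every Cabozantinib tumour was above every Anti-PD1 tumour. It rose by 1.05 ± 0.17, or 2.08-fold (adjusted p = 0.00554, 18 of 20 fits). Kdr, the main signalling VEGF receptor and a direct target of the drug, measured 6.86, 7.59 and 6.64 against 4.49, 5.89, 4.90, 5.52 and 4.50. Kdr was 3.92-fold lower, at -1.97 ± 0.32 (adjusted p = 0.00509, 18 of 20 fits). Nrp1 was -0.83 ± 0.23 (adjusted p = 0.0455, 9 of 20 fits), and its other probe sets gave -0.79 (adjusted p = 0.0467) and -0.78 (adjusted p = 0.146). Flt1, the VEGF receptor that mostly binds ligand without strong signalling, was -0.43 with a 95% interval from -0.97 to 0.10 and did not pass.

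Of the 12 measured kinases on the list of cabozantinib targets, 3 were lower (25%, against 2.75% of all genes) and none higher. They were Kdr, Kit and Tek. The list median was -0.22, and 0 members passed with the Y-linked covariate or with the 8 tumours alone. Kit, the stem cell factor receptor of mast cells, was 6.29, 6.89 and 6.35 in Anti-PD1 and 5.12, 4.88, 5.08, 5.86 and 4.79 in Cabozantinib, with no overlap. Its difference was -1.36 ± 0.22 (adjusted p = 0.00494, 18 of 20 fits). Tek, which encodes the angiopoietin receptor TIE2, was -1.13 ± 0.25 (adjusted p = 0.0208, 14 of 20 fits), with a Cabozantinib mean under the background line. Met, the hepatocyte growth factor receptor, was 0.36 ± 0.13 and did not pass (adjusted p = 0.104). With the mean of all Met probe sets in place of 1, the difference was 0.60 and passed (adjusted p = 0.0364).

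Pericytes are the contractile cells that wrap capillaries. Of 10 measured pericyte and smooth muscle genes, 4 were lower (40%, against 2.75%) and none higher, with a list median of -0.54. Without Anti-PD1 2, 1 passed, and with the Y-linked covariate 0 did. Rgs5, a regulator of G protein signalling that marks pericytes, was 11.02, 11.52 and 11.102 in Anti-PD1 and 10.42, 10.56, 10.38, 9.85 and 10.56 in Cabozantinib. It fell by 0.86 ± 0.15 (adjusted p = 0.00806, 17 of 20 fits). This difference was smaller than those of the leading endothelial genes, at 1.81-fold. Mcam, an adhesion molecule of pericytes and endothelium, was -1.38 ± 0.22 (19 of 20 fits), Higd1b -1.11 ± 0.24 (14 of 20) and Acta2, smooth muscle actin, -0.87 ± 0.22 (13 of 20).

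Globin transcripts had the largest falls among the named genes. Hbb-b2, a beta globin gene, was 11.88, 11.81 and 12.46 in Anti-PD1 and 7.59, 7.97, 7.29, 8.66 and 8.12 in Cabozantinib. That is a difference of -4.13 ± 0.48, 17.5-fold (adjusted p = 0.000547, 20 of 20 fits). The alpha globin gene Hba-a1 was -3.92 ± 0.50 (adjusted p = 0.00111, 20 of 20 fits), and with the Y-linked covariate the differences were -5.05 and -4.88. Globin genes have near-identical copies, so the copy that gave the signal is uncertain. Alas2, the heme synthesis enzyme of red cell precursors, was -0.81 ± 0.17 (adjusted p = 0.0198, 15 of 20 fits), near background in both groups. Of the 9 measured red cell and platelet genes these 3 were called, all lower (33.3%, against 2.75%), and the list median was -0.15.

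Hypoxia and glycolysis genes went the other way. Of 29 measured members, 17 (58.6%) were past the threshold, all higher in Cabozantinib, where 2.67% of all genes were. The list median was 0.43, or 0.29 with the Y-linked covariate, under which 1 member passed. The number that passed was 6 without Anti-PD1 2, 9 without Anti-PD1 3, and 10 without Cabozantinib 1, 2 or 5 in turn. Groups did not overlap for 20 of the 29, against 7.64% of all genes.

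Ndrg1, a stress gene induced by low oxygen, was 10.98, 10.68 and 10.22 in Anti-PD1 and 11.95, 11.81, 11.47, 11.51 and 11.67 in Cabozantinib. It rose by 1.06 ± 0.17 (adjusted p = 0.00494, 19 of 20 fits). Ero1a, the oxidase that forms disulfide bonds in the endoplasmic reticulum, gave 10.53, 10.02 and 9.84 against 11.03, 10.87, 10.93, 10.99 and 10.87. The Cabozantinib values were tightly grouped and all above the Anti-PD1 values. The difference in Ero1a was 0.81 ± 0.15 (adjusted p = 0.0104, 16 of 20 fits).

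P4ha2 encodes a subunit of the collagen prolyl hydroxylase. It measured 9.57, 9.81 and 9.54 in Anti-PD1 and 10.35, 10.21, 10.46, 10.50 and 10.06 in Cabozantinib. P4ha2 rose by 0.68 ± 0.13 (adjusted p = 0.0106, 19 of 20 fits) and was the hypoxia gene that passed with the Y-linked covariate, at 0.87 (adjusted p = 0.0474). Egln3, an oxygen sensor that marks hypoxia-inducible factors for destruction, rose by 0.71 ± 0.13 (adjusted p = 0.00828, 19 of 20 fits). Slc2a1, the glucose transporter GLUT1, rose by 0.46 ± 0.09, or 1.37-fold (adjusted p = 0.0134, 16 of 20 fits), with every Cabozantinib tumour above every Anti-PD1 tumour. For Aldoc, a glycolytic aldolase, the groups overlapped: it was 0.82 ± 0.22 (adjusted p = 0.0456, 11 of 20 fits).

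The window of 250 bases before the gene's start was searched, because the hypoxia genes moved together, for ACGTG, the core of the hypoxia response element, on both strands. It was present in 14 of 27 list members matched to the promoter table (51.9%) and in 10 of 15 members past the threshold. Among 13605 tested genes with a promoter it was in 19.8%, and among all 27025 promoters in 16.6%. The first start site listed for each gene was used. Vegfa and Aldoc, both past the threshold, had no match in their windows. A match of 5 letters is a description and no evidence of binding. The windows of 3 members with a match follow, 5′ to 3′ on the gene's strand from RefSeq (GRCm38.p6), with ACGTG or its reverse complement in capitals.
P4ha2, chr11:54100674-54100923, plus strand: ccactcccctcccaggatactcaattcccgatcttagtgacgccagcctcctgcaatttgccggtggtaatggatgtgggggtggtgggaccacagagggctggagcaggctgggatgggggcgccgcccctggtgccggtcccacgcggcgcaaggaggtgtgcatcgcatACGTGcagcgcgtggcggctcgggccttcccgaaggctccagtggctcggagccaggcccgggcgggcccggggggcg
Ero1a, chr14:45318573-45318822, minus strand: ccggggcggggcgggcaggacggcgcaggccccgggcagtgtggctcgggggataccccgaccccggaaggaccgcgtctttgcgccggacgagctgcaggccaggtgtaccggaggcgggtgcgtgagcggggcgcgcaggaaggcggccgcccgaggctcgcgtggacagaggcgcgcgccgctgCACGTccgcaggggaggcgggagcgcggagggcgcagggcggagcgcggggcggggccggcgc
Egln3, chr12:54203875-54204124, minus strand: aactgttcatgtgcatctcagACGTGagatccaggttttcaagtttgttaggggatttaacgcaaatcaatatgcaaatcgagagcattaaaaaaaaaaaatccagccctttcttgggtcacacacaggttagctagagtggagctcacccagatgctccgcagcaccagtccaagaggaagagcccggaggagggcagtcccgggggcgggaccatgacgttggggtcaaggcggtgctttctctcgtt
Counted from the gene's start, the match began at base -78 in P4ha2, -63 in Ero1a and -229 in Egln3.

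Of 14 measured glycogen genes, 2 were higher (14.3%, against 2.67% of all genes) and none lower, with a list median of 0.08. None passed with the Y-linked covariate, and 1 did with the 8 tumours alone. Gys1, the muscle-type glycogen synthase, was 7.10, 7.09 and 6.81 in Anti-PD1 and 7.87, 7.87, 7.68, 8.10 and 7.64 in Cabozantinib. It rose by 0.83 ± 0.12 (adjusted p = 0.00314, 19 of 20 fits), and no tumour of one group reached the other. Ppp1r3b, which brings a phosphatase to glycogen and favours its synthesis, rose by 0.52 ± 0.11 (adjusted p = 0.0188, 15 of 20 fits).

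**Figure D3:**
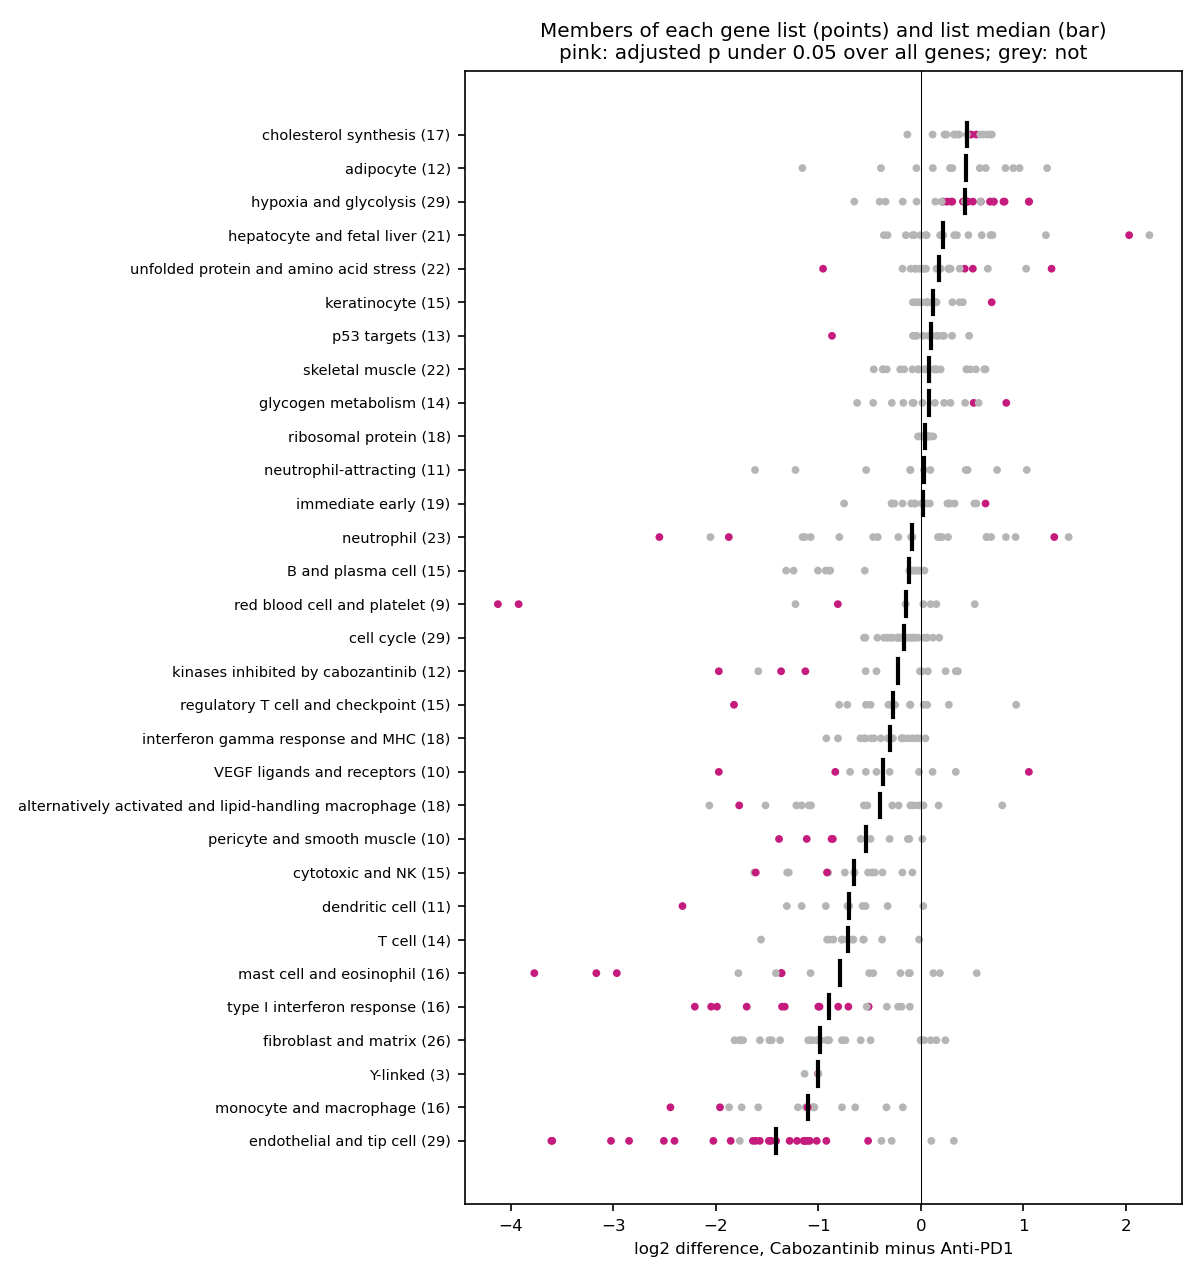
Log2 difference of Cabozantinib minus Anti-PD1 (x axis) for the measured members of 31 gene lists (y axis, number measured in brackets), 1 point per gene, pink where the adjusted p over all genes was under 0.05, with the list median as a black bar. The endothelial median is the lowest at -1.41, and of the hypoxia list, with a median of 0.43, 17 of 29 members are pink and to the right of 0.

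Type I interferon response genes were higher under Anti-PD1. Of 16 measured members, 11 (68.8%, against 2.75% of all genes) were past the threshold, all lower in Cabozantinib, and all 16 differences were below 0, with a median of -0.90. Anti-PD1 scores were 0.95, 0.49 and 0.66, and Cabozantinib scores ran from -0.89 to 0.10. The count was 3 without Anti-PD1 1, 5 without Anti-PD1 2, 6 without Anti-PD1 3 and 7 without Cabozantinib 1. With the Y-linked covariate, or with only the 8 tumours in the fit, 0 members passed, and the median was -0.61 and -0.90.

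Rsad2 encodes viperin, an enzyme that blocks viral replication. It was 10.50, 9.59 and 10.01 in Anti-PD1 and 7.52, 7.18, 9.0, 7.04 and 8.41 in Cabozantinib, a difference of -2.20 ± 0.38 (adjusted p = 0.00668, 18 of 20 fits). The groups did not overlap, and Cabozantinib 3 and 5 were the highest of their group. Ifit1, whose protein binds viral RNA, was 7.91, 7.11 and 7.35 against 5.29, 4.36, 6.47, 5.12 and 5.81. It fell by 2.05 ± 0.36 (adjusted p = 0.00719, 18 of 20 fits). Its relative Ifit3 was -1.99 ± 0.39 (adjusted p = 0.0129, 15 of 20 fits) and Ifit2 -1.35 ± 0.33 (adjusted p = 0.0331, 13 of 20 fits). Irf7, the transcription factor that amplifies interferon production, was -1.70 ± 0.31 (adjusted p = 0.0095, 18 of 20 fits).

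The same window was searched for GAAANNGAA, a core of the interferon-stimulated response element, on both strands. It was found in 6 of 12 matched members (50.0%) and in 5 of 9 past the threshold, against 6.35% of the tested genes and 7.16% of all promoters. No match lay in the windows of Ifit2 and Irf7, which were past the threshold. The windows of Ifit1 and Ifit3 are given because each had 3 matches, 2 of which overlap in Ifit1.
Ifit1, chr19:34640639-34640888, plus strand: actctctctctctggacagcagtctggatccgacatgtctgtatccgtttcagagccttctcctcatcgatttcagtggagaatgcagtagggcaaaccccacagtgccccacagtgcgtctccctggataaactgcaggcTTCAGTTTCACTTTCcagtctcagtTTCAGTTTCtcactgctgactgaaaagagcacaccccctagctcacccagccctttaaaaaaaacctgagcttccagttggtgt
Ifit3, chr19:34583279-34583528, plus strand: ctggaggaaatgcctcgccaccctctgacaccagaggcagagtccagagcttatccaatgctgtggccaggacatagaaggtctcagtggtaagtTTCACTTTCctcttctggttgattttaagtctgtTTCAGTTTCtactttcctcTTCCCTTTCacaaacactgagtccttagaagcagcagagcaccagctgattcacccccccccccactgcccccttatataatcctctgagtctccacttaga
The sequences are RefSeq's (GRCm38.p6), 5′ to 3′ on the gene's strand. Capitals mark the matches, here all on the reverse strand.

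Of the 18 measured interferon gamma response and MHC genes 0 were called, 17 differences were below 0 and the median was -0.30, or 0.26 with the Y-linked covariate. In the list of regulatory T cell and checkpoint genes, 1 of 15 was lower (6.67%, against 2.75%) and none higher. This was Cd86, a costimulatory ligand of antigen-presenting cells, at -1.82 ± 0.44 (adjusted p = 0.0297, 13 of 20 fits). Pdcd1, the gene of PD-1 itself, was 7.54, 7.42 and 8.08 in Anti-PD1 and 6.42, 5.84, 7.44, 7.72 and 7.41 in Cabozantinib. These groups overlapped, and the difference was -0.72 with a 95% interval from -1.53 to 0.10. Cd274, the gene of the ligand PD-L1, was 0.27 with an interval from -0.22 to 0.77.

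T cell genes were lower in Cabozantinib in sign but not past the threshold. All 14 measured members had a difference below 0, with a median of -0.71, and 0 were called. The median was 0.14 with the Y-linked covariate. The T cell score was 0.27, 0.30 and 0.70 in Anti-PD1 and -0.75, -1.15, 0.09, 0.51 and -0.15 in Cabozantinib, so Cabozantinib 4 lay within the Anti-PD1 range. Cd3e, a chain of the T cell receptor complex, was -0.77 (interval from -1.38 to -0.16, adjusted p = 0.127), and Cd8a, the coreceptor of cytotoxic T cells, -0.70 (from -1.36 to -0.04, adjusted p = 0.199). Of 15 cytotoxic and NK genes, 2 were lower (13.3%, against 2.75% of all genes), and 0 with the Y-linked covariate. Gzmk, a granzyme of memory-like T cells, was 8.69, 8.0 and 8.88 against 6.79, 6.26, 7.16, 7.61 and 6.74, or -1.61 ± 0.30 (adjusted p = 0.0104, 18 of 20 fits). Eomes, a transcription factor of those cells, was -0.92 ± 0.21 (adjusted p = 0.0249, 12 of 20 fits). Gzmb, the granzyme of effector cells, was -0.37 with an interval from -1.42 to 0.67.

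All 16 measured monocyte and macrophage genes had a difference below 0, with a median of -1.10, and 3 were called (18.8%, against 2.75%). The median was 0.22 with the Y-linked covariate, and 0 passed. The count was 10 without Cabozantinib 3, 0 without Cabozantinib 1 or without Anti-PD1 2, and 1 without Cabozantinib 2, Anti-PD1 1 or Anti-PD1 3. Within Cabozantinib the score ran from -1.88 in tumour 2 and -0.96 in tumour 1 to 0.36 in tumour 3, and Anti-PD1 gave 0.65, 0.81 and 0.47.

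Fcgr1, the high-affinity Fc receptor of macrophages, was 10.26, 9.97 and 9.98 in Anti-PD1 and 7.53, 5.48, 8.58, 8.40 and 8.13 in Cabozantinib. It fell by 2.44 ± 0.55 (adjusted p = 0.0232, 13 of 20 fits). Cabozantinib 2 was the lowest by more than 2 log2 units. Ccr2, the chemokine receptor that draws monocytes from blood, was -1.96 ± 0.48 (adjusted p = 0.0334, 11 of 20 fits), and Cx3cr1, the fractalkine receptor, -1.11 ± 0.25 (adjusted p = 0.0237, 14 of 20 fits). Adgre1, a surface marker of mouse macrophages, missed the threshold at -1.87 ± 0.55 (adjusted p = 0.0618), and so did Itgam at -1.06 (interval from -2.32 to 0.20). Of 18 genes of alternatively activated and lipid-handling macrophages, 1 was lower (5.56%, against 2.75% of all genes), the scavenger receptor Stab1, at -1.77 ± 0.34 (adjusted p = 0.0122, 16 of 20 fits). Of 11 dendritic cell genes, 1 was lower (9.09%, against 2.75%). It was Fscn1, the actin bundler of mature dendritic cells, at -2.33 ± 0.48 (adjusted p = 0.0168, 16 of 20 fits), and its dimmer probe sets gave -0.79 (adjusted p = 0.0182), -0.77 (adjusted p = 0.0533) and -0.24 (adjusted p = 0.323). The mannose receptor Mrc1 was -1.09 with an interval from -2.12 to -0.06 (adjusted p = 0.195).

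The study's title points to neutrophils, and few neutrophil genes passed the test between the drugs. Of 23 measured neutrophil genes, 1 was higher (4.35%, against 2.67%) and 2 lower (8.70%, against 2.75%). The list median was -0.08, which turned to 0.05 with median-centred arrays and 0.81 with the Y-linked covariate. S100a8, a subunit of calprotectin, was 10.15, 9.70 and 8.52 in Anti-PD1 and 9.66, 9.42, 8.79, 11.51 and 9.23 in Cabozantinib. The groups overlapped: its difference was 0.26 with a 95% interval from -0.95 to 1.48, and it was -0.18 without Cabozantinib 4. For its partner S100a9 the difference was 0.64 with an interval from -0.65 to 1.93, and 0.16 without Cabozantinib 4.

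Csf3r, the receptor for the neutrophil growth factor G-CSF, was -0.42 (interval from -1.04 to 0.20). Cxcl2, a chemokine that attracts neutrophils, was 10.65, 8.41 and 9.76 against 9.46, 9.34, 8.87, 11.49 and 9.02. Its difference was 0.03 with an interval from -1.21 to 1.27. These intervals are wide enough to hold a 2-fold difference in either direction for Cxcl2. None of the 11 measured neutrophil-attracting genes was called, and their median was 0.03.

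The 3 neutrophil list genes that passed were not of 1 kind. Ngp and Camp, granule protein genes of neutrophil precursors, were 8.58, 7.64 and 4.52, and 7.13, 6.56 and 4.23, in Anti-PD1. All 5 Cabozantinib values lay between 4.17 and 4.49 for Ngp and between 3.92 and 4.22 for Camp. So both genes were raised in Anti-PD1 1 and 2 and at background in Anti-PD1 3 and all 5 Cabozantinib tumours. The differences were -2.55 ± 0.65 (adjusted p = 0.0375) and -1.87 ± 0.49 (adjusted p = 0.0407), each in 11 of 20 fits. G0s2, an inhibitor of fat breakdown that other cells also express, was 1.30 ± 0.35 (adjusted p = 0.0468, 8 of 20 fits).

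Of 16 measured mast cell and eosinophil genes, 5 were lower in Cabozantinib (31.3%, against 2.75% of all genes) and none higher, with a median of -0.79. They were Kit and the protease genes Cpa3, Cma1, Mcpt4 and Tpsb2. Cpa3, the mast cell carboxypeptidase, was 8.95, 9.83 and 6.59 in Anti-PD1 and 4.31, 4.29, 4.81, 5.89 and 4.13 in Cabozantinib. Anti-PD1 3 was more than 2 log2 units below the other two, and still above every Cabozantinib tumour. The difference was -3.77 ± 0.73 (adjusted p = 0.0126, 15 of 20 fits). The chymases Cma1 and Mcpt4 were -3.17 ± 0.70 (adjusted p = 0.0218, 15 of 20 fits) and -2.97 ± 0.74 (adjusted p = 0.0348, 12 of 20), and the tryptase Tpsb2 -1.36 ± 0.34 (adjusted p = 0.0351, 12 of 20). The protease gene Mcpt2 was -1.08 and did not pass (adjusted p = 0.264). The count was 1 without Anti-PD1 1 or Anti-PD1 2, and 3 without Cabozantinib 1, 2 or 5. With the Y-linked covariate 0 members were lower and 1 was higher.

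Fibroblast and matrix genes had a median of -0.99 over 26 members, of which 0 were called and 22 were below 0. With the Y-linked covariate the median was 0.22. Col1a1, a chain of type I collagen, shows the spread: it was 10.75, 10.94 and 9.69 in Anti-PD1 and 7.79, 6.75, 10.35, 9.84 and 8.47 in Cabozantinib. The groups overlapped through Cabozantinib 3 and 4. The difference of -1.82 had an interval from -3.17 to -0.47 and an adjusted p of 0.105, and it passed at -2.25 (adjusted p = 0.0222) without Cabozantinib 3.

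**Figure D4:**
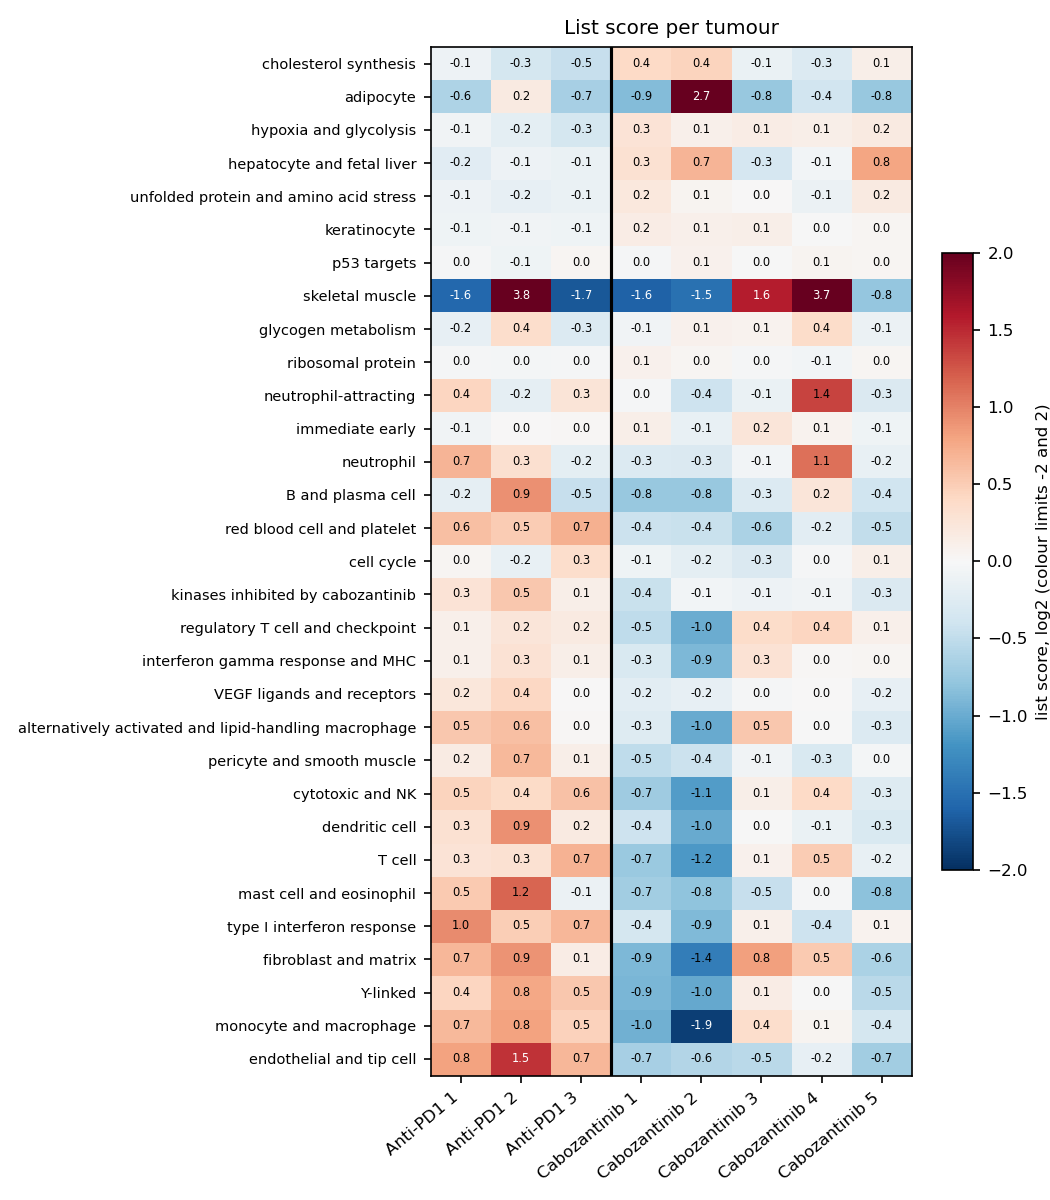
Score of each gene list (rows) in the 3 Anti-PD1 and 5 Cabozantinib tumours (columns), as the average distance in log2 of its genes from their average in all 16 tumours, in red above and blue below 0. Endothelial scores are above 0 in the 3 Anti-PD1 tumours and below 0 in all 5 Cabozantinib tumours, while macrophage scores within Cabozantinib run from -1.88 to 0.36.

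Of 29 cell cycle genes 0 were called, and the median was -0.16. The proliferation marker Mki67 was 0.06 with an interval from -0.21 to 0.33, Alb -0.01 (from -0.14 to 0.13) and Afp 0.06 (from -0.07 to 0.19). Each interval excluded a 2-fold difference in array signal. Whether the very bright Alb and Afp probe sets still follow the amount of RNA was not tested. Of 21 hepatocyte and fetal liver genes 1 was higher (4.76%, against 2.67%). That gene, Serpina1b, encodes an alpha-1-antitrypsin and had the largest rise of all called genes. It was 8.04, 7.48 and 7.15 in Anti-PD1 and 10.02, 10.50, 9.10, 8.35 and 9.96 in Cabozantinib, a difference of 2.03 ± 0.45 (adjusted p = 0.0228, 14 of 20 fits). Serpina1 genes form a family of near-identical copies, so the copy is uncertain.

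Cholesterol synthesis genes were higher in 16 of 17 members in sign, with a median of 0.45, and 2 were called (11.8%, against 2.67% of all genes), or 0 with the Y-linked covariate. Sqle, squalene epoxidase, was 10.23, 9.93 and 10.01 against 10.82, 10.93, 10.34, 10.32 and 10.6, a rise of 0.54 ± 0.15 (adjusted p = 0.0453, 11 of 20 fits). Hsd17b7, which acts later in the pathway, was higher than in Anti-PD1 by 0.49 ± 0.12 (adjusted p = 0.0293, 12 of 20 fits). Its other probe sets gave 0.32 (adjusted p = 0.331) and 0.17 (adjusted p = 0.376). Against Placebo the cholesterol list medians were all below 0: -0.15 in Cabozantinib, -0.57 in Anti-PD1 and -0.48 in Combination. Of 22 stress genes of the unfolded protein and amino acid response, 3 were higher (13.6%, against 2.67%) and 1 lower (4.55%, against 2.75%), and with the Y-linked covariate 0 passed. Vldlr, a lipoprotein receptor on that list, rose by 1.27 ± 0.21 (adjusted p = 0.00509, 19 of 20 fits), and the transcription factor Atf4 by 0.43 ± 0.12 (adjusted p = 0.0472, 10 of 20 fits). Sdf2l1, an endoplasmic reticulum chaperone partner, fell by 0.95 ± 0.19 (adjusted p = 0.0122, 16 of 20 fits).

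Among all genes, those with the largest rises included several outside every list. Tenm4, a teneurin adhesion receptor, was 7.58, 7.46 and 6.52 in Anti-PD1 and 9.04, 9.13, 8.85, 8.64 and 8.94 in Cabozantinib, a rise of 1.73 ± 0.24 (adjusted p = 0.00235, 19 of 20 fits). Slco1a5, an organic anion transporter, gave 4.81, 5.06 and 4.71 against 6.51, 6.62, 6.27, 6.01 and 6.19. In both genes the Cabozantinib values were closely grouped above all Anti-PD1 values. Slco1a5 rose by 1.46 ± 0.22 (adjusted p = 0.00314), and it passed in 20 of 20 fits. Aplp1, an amyloid precursor-like protein, rose by 1.18 ± 0.15 (adjusted p = 0.00108, 19 of 20 fits). Sox9, a transcription factor of bile duct and progenitor cells, rose by 1.14 ± 0.24 (adjusted p = 0.0188, 16 of 20 fits), and Pkhd1, a cilium protein of bile ducts, by 1.39 ± 0.25 (adjusted p = 0.00842, 17 of 20 fits). The chloride transporter Clcn3 rose by a small but even amount, 0.63 ± 0.07 (adjusted p = 0.000414, 20 of 20 fits).

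The other genes in the 15 largest rises were 9130015A21Rik, Cxcl17, Ly6f, Kcnk2, Psors1c2, Ffar4 and Lmcd1, with differences from 1.16 to 1.5, each past the threshold in 12 to 19 of the 20 fits. Among the falls, Ptn, the growth factor pleiotrophin, stood at 6.65, 6.70 and 6.61 in Anti-PD1. In Cabozantinib it was 5.55 in tumour 3 and between 3.85 and 4.26 in the others, a difference of -2.29 ± 0.33 (adjusted p = 0.00281, 19 of 20 fits). Chga, the neuroendocrine granule protein chromogranin A, was 5.31, 6.06 and 5.42 against 4.07, 4.05, 3.79, 3.86 and 4.06, or -1.63 ± 0.17 (adjusted p = 0.000289, 20 of 20 fits). Both were above background under Anti-PD1 and near it in most Cabozantinib tumours. Ccn3, a matricellular protein, was -3.66 ± 0.86 (adjusted p = 0.0281, 12 of 20 fits), Ecrg4 -2.90 ± 0.49 (adjusted p = 0.00602, 18 of 20 fits) and Gask1b -2.45 ± 0.45 (adjusted p = 0.0095, 16 of 20 fits).

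The Placebo tumours allow each drug's values to be set side by side. Both sets of values below use the same 4 Placebo tumours and are therefore not independent. Against Placebo, 44 genes passed for Cabozantinib (0.257%) and 5 for Anti-PD1 (0.0292%) of those tested. Differences from Placebo come from the main fit only and were not followed through the 20 alternative fits. Esm1 passed on both sides: it was -2.06 in Cabozantinib (adjusted p = 0.00144) and 1.53 in Anti-PD1 (adjusted p = 0.0469), around a Placebo mean of 6.73. Gpihbp1 was -2.24 and 0.79, Cdh5 -1.33 and 1.18, and Emcn -1.65 and 1.19, and of these values those in Cabozantinib passed. Over the endothelial list the medians were -0.56 in Cabozantinib, 0.85 in Anti-PD1 and -0.23 in Combination.

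Over the hypoxia list the medians against Placebo were 0.31 in Cabozantinib, -0.09 in Anti-PD1 and 0.20 in Combination. Ero1a was 0.74 in Cabozantinib (adjusted p = 0.0409) and -0.07 in Anti-PD1, P4ha2 0.74 (adjusted p = 0.0169) and 0.06, and Gys1 0.76 (adjusted p = 0.0141) and -0.07. Vegfa was split, at 0.48 and -0.58. Globin Hbb-b2 was -3.09 (adjusted p = 0.0141) and 1.03. The mast cell gene Cpa3 was -3.40 and 0.37, and Rgs5 -0.94 (adjusted p = 0.0141) and -0.08.

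Interferon and macrophage genes lay farther from Placebo in Anti-PD1 in value, and none of those named here passed. Rsad2 was 1.87 in Anti-PD1 (adjusted p = 0.111) and -0.34 in Cabozantinib, Ifit1 1.37 and -0.67, and Fcgr1 1.65 and -0.79. The list medians in Anti-PD1, Cabozantinib and Combination were 0.64, -0.30 and -0.04 for type I interferon and 0.98, -0.25 and 1.06 for macrophages. In the same order they were 0.68, 0.004 and 0.49 for T cell genes and 1.08, 0.10 and 0.97 for fibroblast and matrix genes. Ptn (2.28, adjusted p = 0.0469) and Chga (1.24, adjusted p = 0.0469) were higher in Anti-PD1 than in Placebo, where Cabozantinib was -0.01 and -0.39. Clcn3 and Hsd17b7 were lower in Anti-PD1, at -0.48 (adjusted p = 0.0469) and -0.93 (adjusted p = 0.0331). The neutrophil genes S100a8 and S100a9 were above Placebo in value under each drug: 1.92 and 2.26 in Cabozantinib and 1.66 and 1.6 in Anti-PD1, with none past the threshold.

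**Figure D5:**
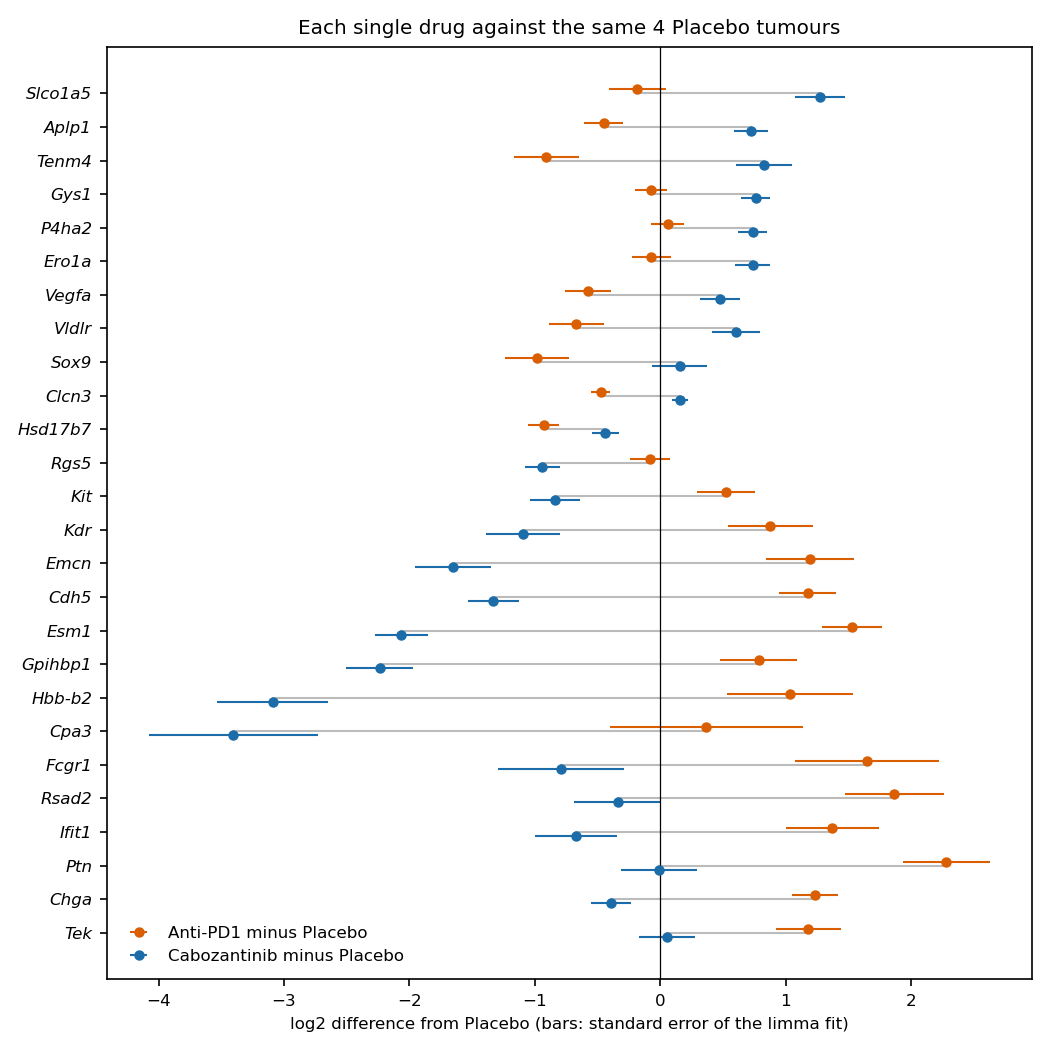
Log2 difference from the 4 Placebo tumours (x axis) of 26 genes in Anti-PD1 (orange) and Cabozantinib (blue), with the standard error of the limma fit as bars and a grey line joining both values of a gene. Esm1 lies at -2.06 and 1.53 on opposite sides of 0, Gys1 differs from 0 on the Cabozantinib side (0.76) and Ptn on the Anti-PD1 side (2.28).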

How the data were processed

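Total RNA of each tumour (50 ng) was hybridised to 1 Affymetrix mouse array, per the labels. The values the authors deposited are log2 probe set signals. The submitters' processing notes list RMA and affy 1.62.0 but no settings, and the sources used here give no batch, scan date or detection call. The 45141 probe sets included 104 controls. Of the rest, 28898 had 1 gene symbol, and the one with the highest mean per gene left 17097 genes. Cabozantinib minus Anti-PD1 was tested with limma 3.58.1 in R 4.3.3 (lmFit and eBayes, 4 group means over 16 arrays, no covariate), adjusted by Benjamini-Hochberg over all genes; a threshold of 0.05 was used, and intervals are unadjusted 95% intervals. Arrays carry no read depth, and their number limits the precision.

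Named genes were the 15 largest rises and falls past the threshold with groups apart and above background, up to 5 called members of each of 31 lists, and a panel of vessel, hypoxia, immune and tumour genes. Members and lists were chosen with earlier results of these data known. List sizes count measured members. Quality measures were compared by exact permutation. Alternatives changed the arrays in the fit, array weights, prior, dim-gene filter, probe set choice, scaling, covariates, tumours left out and threshold; leaving out Placebo and Combination tumours was added after seeing the data.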

Additional observations from a re-analysis of the deposited data

Results flagged for a closer look

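In each set of 5 Cabozantinib values, the gap of the highest or lowest tumour to its neighbour was set against the whole range. Of 129 sets (93 genes, 31 list scores and 5 array measures), 11 exceeded Dixon's 95% critical value of 0.71; chance flags about 1 in 20. The 3 Anti-PD1 tumours are too few for this test.

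Cabozantinib 4 stood above the other 4 in 6 of these sets and below them in 1. Its neutrophil score was 1.11 and its neutrophil-attracting score 1.36, with Cxcl2 at 11.49 and Csf3r at 7.43. It was also high for the endothelial genes Aplnr (6.54) and Emcn (6.28), and low for the pericyte gene Rgs5 (9.85). The same tumour had the high skeletal muscle score of 3.72. Its part in these values was not tested, and the difference in Emcn and Rgs5 remained past the threshold without it.

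Cabozantinib 3 was high for Ptn (5.55) and Gask1b (6.44). Cabozantinib 1 was high for Egln3 (10.55), where the next tumour was at 10.38. Cabozantinib 2 had an adipocyte score of 2.68, while the other 4 lay between -0.87 and -0.38.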

How the results depend on the processing

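Of 75 called genes named by the rule, 0 reversed under any alternative, 9 stayed past the threshold in all planned fits and 66 lost it in at least 1. Their number past the threshold was 10 with the Y-linked covariate, 26 with the 8 tumours alone and 37 without the 2 muscle-high tumours. These 2 are Anti-PD1 2 and Cabozantinib 4, and Combination 4, with a muscle score of 4.76, stayed in that fit. The genes past the threshold numbered 928, of which the genes higher in Cabozantinib were 457 and the genes lower in Cabozantinib 471. They were 149 (70 and 79) with the 8 tumours alone, 2864 (1523 and 1341) with array weights, 42 (21 and 21) with the Y-linked covariate, 1733 (821 and 912) with the control covariate, 207 (84 and 123) without the 2 muscle-high tumours, 1813 (938 and 875) at a threshold of 0.1 and 253 (27 and 226) at 2-fold or more. With 1 tumour left out they ranged from 164 to 1916 (72 to 945 higher, 92 to 971 lower): 309, 164 and 401 without Anti-PD1 1, 2 and 3, and 375, 440, 1916, 1317 and 454 without Cabozantinib 1 to 5. Array weights gave Anti-PD1 1 a weight of 3.23. Dimmer probe sets of a called gene did not always pass in the same limma model (adjusted p in brackets). They gave -0.28 for Cx3cr1 (0.217), -0.73 for Eomes (0.0643), 0.03 for Tpsb2 (0.918) and 0.16 for Aldoc (0.433). For Acta2 the value was -0.08 (0.662), for Atf4 0.10 (0.403) and for Hbb-b2 -0.26 (0.0949) and -0.20 (0.405). All dimmer probe sets of Tenm4, Rsad2, Vldlr and Ero1a passed.

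Endothelial genes lower (24) were 12 with the 8 tumours alone, 4 with the Y-linked covariate and 13 to 25 with 1 tumour left out. Hypoxia genes higher (17) were 2, 1 and 6 to 20, and 5 without the muscle-high tumours and 2 at 2-fold. Type I interferon genes lower (11) were 0, 0 and 3 to 11, and 5 and 7. The cause of these shifts was not tested.

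Reversals were found in 12 of 18 named genes that had not passed. With the Y-linked covariate Csf3r was 0.32, Cd8a 0.024, Gzmb 0.38, Pdcd1 0.0030, Itgam 0.65, Mrc1 0.30, Col1a1 0.031 and Flt1 0.19. With array weights S100a8 was -0.24, Cxcl2 -0.68 and Alb 0.0057, and Alb was 0.13 with median centring. Without the muscle-high tumours S100a8 was -0.061, Cxcl2 -1.03 and Mki67 -0.045. With 1 tumour left out S100a8 ranged from -0.20 to 0.61, Cxcl2 from -0.57 to 0.55, Mki67 from -0.022 to 0.15 and Alb from -0.018 to 0.019.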

Other observations

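Of 13 measured p53 target genes 1 was lower (7.69%, against 2.75% of all genes). This was Sesn1, a stress-induced regulator of growth signalling, at -0.87 (14 of 20 fits), and the list median was 0.10. No member of the p53, immediate early and keratinocyte lists passed with the Y-linked covariate. Of 19 immediate early genes 1 was higher (5.26%, against 2.67%), the transcription factor Junb, at 0.63 (11 of 20 fits), with a list median of 0.02. Of 15 keratinocyte genes 1 was higher (6.67%, against 2.67%), the desmosome gene Dsp, at 0.69 (19 of 20 fits), with a list median of 0.12. Of 18 ribosomal protein genes, 12 adipocyte genes, 15 B and plasma cell genes and 22 skeletal muscle genes, 0 passed, with medians of 0.04, 0.44, -0.11 and 0.08. The B and plasma cell median was 0.02 with median-centred arrays.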
